A study of Mus musculus with 18 samples.

Results

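The genes described here encode the enzymes of oxidative phosphorylation (OXPHOS) in cells of the mouse mammary gland. They were chosen by symbol alone, as genes that carry an Nduf, Sdh, Uqcr, Cox or Atp5 name or as subunits encoded on mitochondrial DNA. Most are subunits of complexes I to V, and symbols that mark pseudogenes were left out. This gave 97 of 46257 gene IDs, of which 84 are nuclear and 13 are mitochondrially encoded. Of these, 94 genes (81 nuclear and 13 mitochondrial) passed the filter on low values, which asked for at least 10 in at least 2 libraries. The 3 that did not pass were Cox6a2, with values of 0 to 4, and Cox8c and Cox7b2, which were listed at 0 in all 18 libraries.

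Basal, ER+ luminal and ER- luminal cells were isolated by flow sorting at puberty, in adult mice and in pregnancy, with 2 libraries in each of the 9 groups. All mice had the genotype ERrtTA/TetOCre/rosaYFP, which combines a Cre recombinase under tetracycline control with a yellow fluorescent reporter, and all groups carried these alleles. The sources used here do not give the sorting gates, ages, any doxycycline treatment or the numbers of animals. Replicates are not said to be separate animals, so p-values measure only how far these libraries vary, which may be technical. Groups follow the sample titles, because the cell type label of the basal libraries of puberty and pregnancy reads "BC luminal cells", whereas adult ones have "basal cells".

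ATP production by oxidative phosphorylation rests on both the nuclear and the mitochondrial genome. Complex I (NADH dehydrogenase), complex III (the cytochrome bc1 complex) and complex IV (cytochrome c oxidase) pump protons with electrons from nutrients, complex II (succinate dehydrogenase) feeds electrons in from the TCA cycle, and complex V (ATP synthase) uses the proton gradient. Most subunits are nuclear genes whose proteins are imported into the organelle. The mitochondrial DNA encodes a small core of complexes I, III, IV and V, is copied into long transcripts from both strands, and supplies no subunit of complex II. The mammary epithelium enters pregnancy as a sparse ductal tree and builds milk-producing alveoli, a process with a high demand for energy and for citrate-derived fat.

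Levels are scaled read counts on a common total of 20000000 per library. Log2 fold changes are of the level + 1, are given ± the standard error, and understate the change of low genes. A gene is called changed where its limma adjusted p, with Benjamini-Hochberg adjustment over all 22315 genes tested, is under 0.05. Reads in genes, inferred from the steps between low values, numbered 2406177 to 3165234 in the 4 adult luminal libraries and 4233227 to 11292204 in the other 14. Basal markers followed the labels, with sums of 147734 to 315895 in basal libraries and at most 38358 in luminal ones. ER+ markers set ER+ libraries apart within each stage but not across stages. They summed to 45197 to 237328 in ER+, 10637 to 51447 in ER- and 7598 to 41294 in basal libraries. Pregnancy ER+ libraries had only 45197 and 102883, against 186863 or more in earlier ER+ libraries. The second pregnancy ER+ library had Esr1 of 2096 and Prlr of 15215. Puberty ER- libraries had Esr1 of 2152 and 2032, and adult ER- libraries had Prlr of 19106 and 29170. Pregnancy ER- libraries had less, with at most 751 for Esr1 and 4795 for Prlr. ER- luminal markers, which include milk protein genes, did not follow the labels: they reached 158932 and 361091 in pregnancy ER+, 131364 and 181716 in pregnancy basal and 31518 and 121126 in adult basal libraries, against 69880 to 372865 in ER- libraries. Elf5 and Kit, in this list but not milk protein genes, were at 4329 and 11434 and at 4749 and 10178 in pregnancy ER+ libraries. Pregnancy ER- libraries had 12758 and 11272 and 12906 and 14408, and earlier ER+ libraries 445 to 1005 and 1288 to 3202. Mixing of the populations was not tested. In addition, 1 library stood apart in the measures used here, the second pregnancy ER- library. Its 20 most abundant genes held 3.53% of its total, against 8.59% to 14.9% in the other 17. Some of the counts that rest on it are given with and without it. Counts per complex, of signs, of libraries without overlap and of promoter windows are given only with it.

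The 13 mitochondrial genes fell into a high and a low class. The high class had 7 members, mt-Nd1, mt-Nd2, mt-Nd4, mt-Nd5, mt-Nd6, mt-Co1 and mt-Cytb, with mean levels per kilobase of 30923 (mt-Nd4) to 93935 (mt-Co1, the catalytic core of complex IV). The other 6, mt-Co2, mt-Atp8, mt-Atp6, mt-Co3, mt-Nd3 and mt-Nd4l, had between 13.5 (mt-Nd4l) and 255 (mt-Nd3) per kilobase. These 6 are neighbours on the mitochondrial genome, at chrM:7013-10173 (GRCm38), a stretch of 3161 bases between mt-Co1 and mt-Nd4. The low class was low in every library: mt-Co2, which carries the copper centre of complex IV, ranged from 13 to 94, while mt-Co1 ranged from 17475 to 276513.

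**Figure D1:**
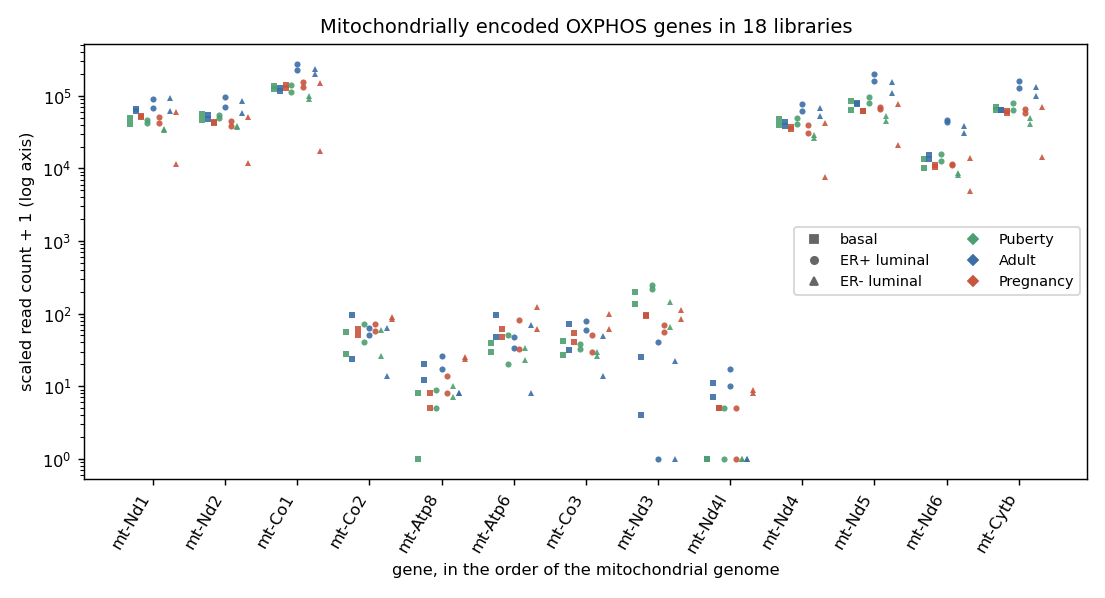
Scaled read count + 1 (log axis) of the 13 mitochondrially encoded genes in the order of the mitochondrial genome, with 1 point per library, its shape for the cell type and its colour for the stage. The 6 neighbouring genes from mt-Co2 to mt-Nd4l lie far below the 7 others in all 18 libraries.

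Of these 6 genes, 5 have an annotated copy of nearly their whole length on chromosome 1, and other mitochondrial genes have annotated copies in part. Annotated transcripts (GENCODE vM21, GRCm38) of the mitochondrial genes were aligned only with those of 7 pseudogenes. These lie in a row at chr1:24611535-24616197 on the minus strand, a stretch of 4663 bases in the order of the mitochondrial genes. The copies Gm28661 (of mt-Co2), Gm10925 (of mt-Atp6), Gm28437 (of mt-Co3) and Gm10222 (of mt-Nd4l) had no mismatch over at least 98.99% of the gene. Of mt-Atp8, also in the low class, the last 43 of 204 bases (21.1%) were found, in Gm10925. The rest of mt-Atp8 lies between mt-Co2 and mt-Atp6, which are 230 bases apart. Gm28661 and Gm10925 are 233 bases apart, and the sequence between them is outside these transcripts and was not aligned. Whether the copies account for the classes was not tested. Gm28439 holds 63.6% of mt-Nd4 without a mismatch, and Gm29216 holds 31.8% of mt-Co1 with 6 mismatches, although both genes are in the high class. For mt-Nd1, mt-Nd2, mt-Nd5, mt-Nd6 and mt-Cytb no match was found among these 7 pseudogenes, and copies elsewhere in the genome were not searched for. The only difference between mt-Nd3 and Gm28438 over 345 aligned bases is T3C, with positions counted from the first base of the gene and the mitochondrial base named first. The first 60 bases of both are shown because they carry this difference, which is in capitals. They lie at chrM:9459-9518 on the plus strand and at chr1:24613060-24613119 on the minus strand.
mt-Nd3: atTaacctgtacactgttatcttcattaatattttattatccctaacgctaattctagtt
Gm28438: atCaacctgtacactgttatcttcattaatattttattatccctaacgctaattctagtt

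Reads from such copies can be split or set aside when reads are counted, and the sources used here do not say how the counting treated them. The levels of the low class are therefore uncertain, and they are not taken as levels of these transcripts. The copies themselves held few counts: Gm28437 ranged from 13 to 675 and Gm28661 from 8 to 85. The pair mt-Nd3 and Gm28438 differed by stage. In the 6 adult libraries mt-Nd3 was at 3 and 24 in basal, 39 and 0 in ER+ and 21 and 0 in ER- cells, whereas it was at 55 to 249 in the other 12. Gm28438 had the opposite order, with 435 and 633 in basal, 978 and 743 in ER+ and 566 and 502 in ER- adult cells, and 23 to 174 in the other 12 libraries. The adult and the other libraries did not overlap in either gene, and the cause of this split was not tested.

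Summed over the 13 genes, mitochondrial transcripts made up 3.09% to 4.77% of the total in the 4 adult luminal libraries and 1.43% to 2.44% in 13 of the 14 others. In the second pregnancy ER- library they made up 0.450%, against 2.34% in the first. The 95% Wilson intervals of these shares are within 0.0261 percentage points of the value and cover counting error only. The summed nuclear genes made up 0.349% to 0.668% and did not divide the libraries in this way. The mitochondrial sum was thus 7.54 to 8.53 times the nuclear sum in adult luminal libraries, 3.04 to 6.32 times in 13 others and 0.673 times in the second pregnancy ER- library. Adult luminal libraries were also those with the fewest reads, and mitochondrial ribosomal RNA moved with them, at 1.64% to 2.29% of the total against 0.163% to 0.980% in the other 14. The part of depth or of RNA handling in this was not tested. In these bulk libraries, fewer cells of a kind and less RNA per cell cannot be told apart.

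**Figure D2:**
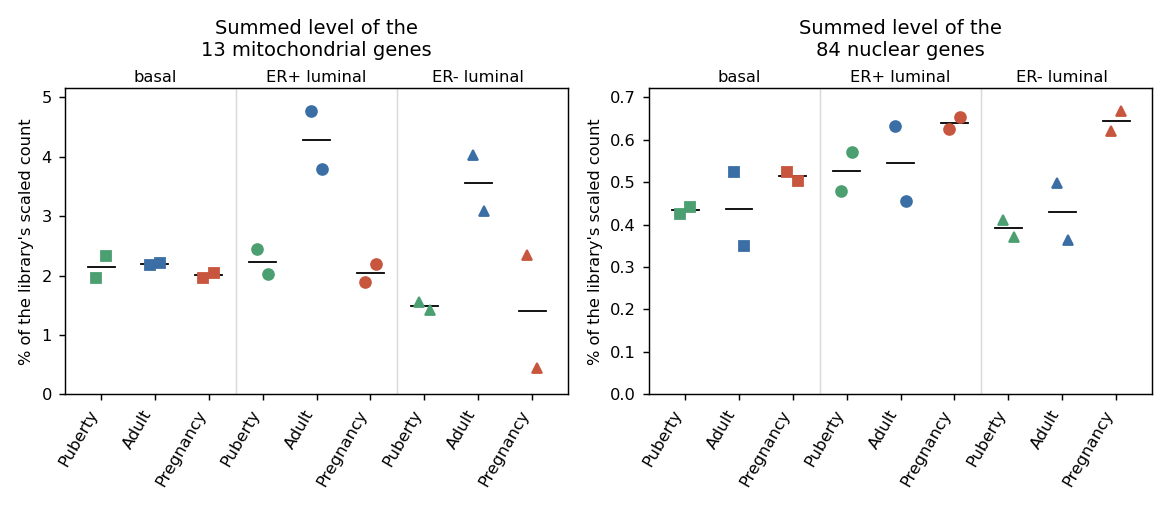
Share of each library's scaled count (%) taken by the 13 mitochondrial genes (left) and the 84 nuclear genes (right), by cell type and stage, with 1 point per library and a bar at the mean of 2. Adult luminal libraries are highest in mitochondrial share, at 3.09% to 4.77%, while the 2 pregnancy ER- libraries differ, at 2.34% and 0.450%.

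Among nuclear genes, levels spanned a wide range within each complex. Atp5b, the catalytic beta subunit of ATP synthase, had the highest mean level, 11282, and the highest of complexes I to IV were Ndufa10 (2000), Sdha (2936), Uqcrc1 (2752) and Cox4i1 (2696). The lowest mean levels by complex were those of Ndufb4 (147), Sdhd (890), Uqcr11 (617), Cox7b2 (0) and Atp5s (182). Per kilobase of annotated exon the mean level was 2663 for Atp5b, 2196 for Cox6a1, 1740 for Cox4i1 and 723 for Sdhd. Across the 18 libraries, log2 levels of pairs of nuclear genes had a median Pearson r of 0.625, pairs of mitochondrial genes of the high class 0.950, and a nuclear with a mitochondrial gene -0.15, or 0.13 over the 17 libraries without the second pregnancy ER- library. These values are descriptions over libraries that share stages, cell types and depth.

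Pregnancy against puberty in ER- luminal cells, the lineage that forms the milk-producing alveoli, gave the largest number of calls among the 6 stage comparisons. Of 81 nuclear genes, 30 rose and 1 fell, where 14.8% of all genes were called (8.78% higher and 6.04% lower). The calls covered every complex: 11 of 35 in complex I, 1 of 4 in complex II, 3 of 8 in complex III, 6 of 17 in complex IV and 9 of 17 in complex V rose. The median log2 fold change of the 81 was 0.65, against 0.03 for all genes, and 74 of them were above 0, against 51.2% of all genes. In 71 of the 81 both pregnancy libraries lay above both puberty libraries, which 31.5% of all genes did. No mitochondrial gene was called by limma or by edgeR, 2 of 13 had an unadjusted p under 0.05, and the median of the 13 was -0.03. That median covers 2 unlike pregnancy libraries. The mitochondrial share was 1.56% and 1.43% at puberty, against 2.34% and 0.450% in the first and second pregnancy ER- libraries. Without the second pregnancy ER- library the median was positive.

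The largest rise was that of Cox5a (chr9:57521274-57532426, plus strand), a nuclear-encoded subunit of complex IV on its matrix side. Its level was 400 and 236 at puberty, 437 and 264 in adult and 832 and 1210 in pregnancy ER- cells. Both pregnancy libraries were above the other 4, and the log2 fold change over puberty was 1.70 ± 0.37 (limma adjusted p = 0.00799). Ndufb6, an accessory subunit of complex I, was at 125 and 93, 171 and 126, and 212 and 380, with a rise of 1.39 ± 0.41 over puberty (limma adjusted p = 0.0333).

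In complex V, Atp5g1 and Atp5o rose. Atp5g1, a gene for the c subunit of the membrane ring, was at 425 and 427 at puberty, 512 and 389 in adult and 885 and 1251 in pregnancy ER- cells. Atp5o, the stalk subunit that confers oligomycin sensitivity, was at 916 and 785, 1398 and 790, and 1935 and 2193. Neither gene overlapped between pregnancy and the other stages, and the changes over puberty were 1.30 ± 0.41 (limma adjusted p = 0.0446) and 1.28 ± 0.31 (limma adjusted p = 0.0134). The Atp5g1 call was lost in 17 of 26 alternatives and the Atp5o call in 2. Atp5b was at 8351 and 7034, 11274 and 7262, and 16382 and 11978, a rise of 0.87 ± 0.27 over puberty (limma adjusted p = 0.0482). This call was lost in 16 of 26 alternatives.

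Complex II rose in part. Sdhd, a membrane anchor, was at 724 and 632 at puberty, 757 and 552 in adult and 1074 and 1439 in pregnancy ER- cells, 0.88 ± 0.25 above puberty (limma adjusted p = 0.0303). Sdha, the flavoprotein, was at 3039 and 2853, 2570 and 2080, and 3913 and 4551, and its 0.52 ± 0.19 over puberty did not pass (limma adjusted p = 0.0811). The iron-sulfur subunit gene Sdhb and the other anchor, Sdhc, had 0.70 and 0.48 (limma adjusted p = 0.0664 and 0.135). In complex III, Uqcrc1 (chr9:108936633-108949623, plus strand), a core protein on the matrix side, was at 2386 and 1865, 2284 and 1817, and 3873 and 4581, and it was among the 3 that rose.

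The count of calls in this ER- comparison depended on single libraries. Leaving 1 out leaves a group with 1 library, which can change the calls of every gene. Shares of all genes called in such fits are not given here, so these counts are not read as a trait of OXPHOS genes. Without the second pregnancy ER- library, or without the second puberty ER- library, the count of calls was 1 in both cases. Without the first puberty ER- library it was 14. With library scaling by median ratios it was 20, of which 18 were higher and 2 lower, and that scaling put the median of all genes at -0.11. The direction held throughout: the median of the 81 nuclear genes was 0.51 to 0.80 over the libraries left out in turn and 0.48 to 0.49 with median-ratio scaling, quantile normalization or edgeR. edgeR called 20 higher and 2 lower. Over all genes, the split of calls was 1960 higher and 1347 lower, but 1503 and 1963 with median-ratio scaling, 1689 and 1844 with quantile normalization and 1800 and 2102 with edgeR.

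The second pregnancy ER- library had a distribution of its own, which is given here for this reason. Relative to the first, its median ratio was 1.21 over 3054 genes with levels of 1000 to 3000, 1.14 over 1230 genes from 3000 to 10000, 0.959 over 179 genes up to 30000 and 0.534 over 39 genes above that. Its mt-Co1 was 0.117 times that of the first library, its Csn2, which encodes beta-casein, 0.0840 times, its elongation factor gene Eef1a1 0.208 times, and its 18S ribosomal RNA copy Rn18s-rs5 0.0473 times. Summed nuclear OXPHOS levels were 123170 and 132499 in the first and second pregnancy ER- libraries, against 81669 and 73371 at puberty. Adipocyte markers summed to 10134 and 13269 in pregnancy ER- against 6362 to 29094 in puberty ER- cells, basal markers to 35829 to 38358 against 3580 to 14280, and immune markers to 4203 to 4582 against 1017 to 1279. Most of the pregnancy adipocyte sum was Lpl, at 7994 and 11284, while Adipoq was at 0 and 8 against 1380 and 230 at puberty. The part of these in the result was not tested.

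Promoters of 4 genes that rose are shown, of which 3 hold a motif of a factor known to act on OXPHOS genes. NRF1 is a transcription factor that binds a palindromic GC-rich site in many nuclear genes for mitochondrial proteins, and GABP, of the ETS family, and YY1 act on others. RefSeq promoters (GRCm38.p6), 250 bases before to 50 after the start, were found for 69 of the 84 nuclear genes, in 75 windows. On either strand, GCGCATGCG occurred in 10.7% of these windows and in 1.75% of all 32851 promoter windows, CCGGAAG in 21.3% and 8.86%, and AAGATGGC in 16% and 2.75%. Among the 25 windows of genes called higher in pregnancy than puberty ER- cells the shares were 20%, 32% and 4%. These are counts of letters in windows and say nothing of binding.

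These 4 promoters were chosen after the values were seen: 3 hold GCGCATGCG, and that of Cox5a, with the largest rise, holds none of the 3 motifs. Capitals mark GCGCATGCG with its overlapping match on the other strand and, in Cox6a1, also CTTCCGG, the reverse complement of CCGGAAG. Cox6a1 encodes a complex IV subunit and is at chr5:115348909-115349208 (minus strand), Uqcrc1 at chr9:108936398-108936697, Ndufa11, an accessory subunit of complex I, at chr17:56717512-56717811 and Cox5a at chr9:57520982-57521281 (the last 3 on the plus strand).
Cox6a1 promoter: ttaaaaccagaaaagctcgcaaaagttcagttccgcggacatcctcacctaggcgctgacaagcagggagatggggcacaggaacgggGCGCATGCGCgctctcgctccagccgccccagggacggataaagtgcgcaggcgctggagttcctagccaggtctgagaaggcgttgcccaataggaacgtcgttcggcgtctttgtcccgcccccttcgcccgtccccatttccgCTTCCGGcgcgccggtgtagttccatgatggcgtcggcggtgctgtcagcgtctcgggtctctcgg
Uqcrc1 promoter: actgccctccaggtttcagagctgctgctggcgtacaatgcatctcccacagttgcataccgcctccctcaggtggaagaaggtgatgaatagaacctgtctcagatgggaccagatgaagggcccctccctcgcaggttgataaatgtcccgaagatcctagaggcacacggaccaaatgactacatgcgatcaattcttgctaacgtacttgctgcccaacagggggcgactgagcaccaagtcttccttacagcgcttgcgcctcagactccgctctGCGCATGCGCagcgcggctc
Ndufa11 promoter: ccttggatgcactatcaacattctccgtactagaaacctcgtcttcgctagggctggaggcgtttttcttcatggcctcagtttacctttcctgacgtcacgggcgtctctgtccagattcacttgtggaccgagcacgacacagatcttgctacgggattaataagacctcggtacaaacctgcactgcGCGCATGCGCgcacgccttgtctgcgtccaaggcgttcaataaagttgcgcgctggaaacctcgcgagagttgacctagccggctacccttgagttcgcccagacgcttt
Cox5a promoter: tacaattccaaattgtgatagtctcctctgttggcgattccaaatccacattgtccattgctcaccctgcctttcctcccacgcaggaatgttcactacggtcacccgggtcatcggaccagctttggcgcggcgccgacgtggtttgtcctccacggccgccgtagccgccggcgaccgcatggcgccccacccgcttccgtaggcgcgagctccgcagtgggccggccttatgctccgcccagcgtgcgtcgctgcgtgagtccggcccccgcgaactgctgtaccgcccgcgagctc

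Pregnancy against adult in ER- luminal cells gave 20 higher and 1 lower nuclear gene, where 14.4% of all genes were called (8.89% higher and 5.51% lower). The rises were 8 of 35 in complex I, 3 of 4 in complex II, 2 of 8 in complex III, 2 of 17 in complex IV and 5 of 17 in complex V. The median of the 81 genes was 0.57, against 0.09 for all genes, and 71 were above 0. Both pregnancy libraries lay above both adult ones in 53 of the 81, as in 31% of all genes. Of the mitochondrial genes, 3 of 13 fell and none rose. Since this comparison shares the pregnancy libraries with the one before, the 2 are not independent. In pregnancy and adult ER- cells, basal markers summed to 35829 to 38358 and 5424 to 6334, adipocyte markers to 10134 to 13269 and 906 to 998, and endothelial markers to 4394 to 4686 and 417 to 576. Lpl, at 7994 and 11284 and at 648 and 627, and Fabp4 held most of the adipocyte sum. Every other adipocyte marker was at 82 or less in these libraries. Cfd was at 4 and 0 in pregnancy and 55 and 44 in adult. The part of these marker genes in the result was not tested.

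Ndufv1, which carries the flavin at which complex I takes up electrons from NADH, was at 1082 and 962 at puberty, 1009 and 658 in adult and 1757 and 2287 in pregnancy ER- cells. The pregnancy libraries were above the other 4, by 1.30 ± 0.24 over adult (limma adjusted p = 0.00324). Uqcrc1 was 1.05 ± 0.23 above adult (limma adjusted p = 0.00895), with the levels given before. Atp5g3, another gene for the c subunit of ATP synthase, was at 1701 and 1504, 1902 and 1366, and 3240 and 3338, and had 1.03 ± 0.24 over adult (limma adjusted p = 0.0116). Cox5a had 1.56 ± 0.37 over adult (limma adjusted p = 0.0144), the largest rise in this comparison too.

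Uqcr11, a small subunit of complex III, was at 423 and 392, 450 and 345, and 805 and 812 in the 3 stages of ER- cells, and both pregnancy libraries were above the other 4. Its change over adult was 1.04 ± 0.24 (limma adjusted p = 0.0114). Ndufa5, an accessory subunit of complex I, had 1.04 ± 0.28 (limma adjusted p = 0.0222). In complex II, Sdha, Sdhb and Sdhd rose by 0.87, 0.79 and 0.94 (limma adjusted p = 0.00886, 0.0409 and 0.0234), while Sdhc had 0.25 (limma adjusted p = 0.443). The Sdhb call was lost in 13 of 26 alternatives, and those of Sdha and Sdhd in 2 each. Without the second adult ER- library no nuclear gene was called by limma, and without the second pregnancy ER- library 1 was called, which was lower. Over all libraries left out in turn the median of the nuclear genes was 0.31 to 0.82. edgeR called 15 higher and 1 lower. All genes split into 1983 higher and 1230 lower calls, but 1598 and 1682 with median-ratio scaling and 1529 and 1803 with quantile normalization.

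Between pregnancy and adult ER- cells, 3 of the 7 mitochondrial genes of the high class fell. All 7 had both pregnancy libraries below both adult ones, as in 22.4% of all genes, with log2 fold changes of -2.08 to -1.51. The 6 uncertain genes of the low class had positive values there, 1.54 (mt-Co2) to 4.38 (mt-Nd3), none of which passed, so the median of -1.51 over all 13 genes mixes the classes. Of the high class, mt-Nd6, mt-Cytb and mt-Nd5 fell by 2.08, 1.85 and 1.68 (limma adjusted p = 0.00384, 0.0447 and 0.0328). The level of mt-Nd6, a complex I subunit and the only member encoded on the other strand of the mitochondrial genome, was 8576 and 8087 at puberty, 38832 and 30498 in adult and 13778 and 4829 in pregnancy ER- cells. That of mt-Cytb, the heme-bearing core of complex III, was 48761 and 40313, 131770 and 97933, and 69576 and 14306. Adult libraries were highest for both genes, without overlap, and the pregnancy libraries differed from each other more than the puberty ones did. Without the second pregnancy ER- library mt-Nd6 still passed, at -1.32 (limma adjusted p = 0.00399), but mt-Cytb and mt-Nd5 did not, at -0.71 and -0.74 (limma adjusted p = 0.0725 and 0.0718). edgeR called 1 lower, and 1 to 7 genes were called over the libraries left out in turn.

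In ER+ luminal cells, pregnancy against adult gave 1 lower mitochondrial gene and no called nuclear gene, where 17.9% of all genes were called (12.8% higher and 5.05% lower). That gene was mt-Nd6, at 15973 and 12590 at puberty, 46002 and 43670 in adult and 11335 and 11189 in pregnancy ER+ cells. The adult libraries stood alone above the rest, and pregnancy was lower by 1.99 ± 0.35 (limma adjusted p = 0.00252), a call kept in all 26 alternatives run for it. For mt-Nd5, at 97804 and 80464, 196579 and 158850, and 64949 and 70069, the change of -1.39 ± 0.45 did not pass (limma adjusted p = 0.0562). The median of the 13 genes was -0.99, and 10 of them, the 7 of the high class included, had both pregnancy libraries below both adult ones, against 20.1% of all genes. When either pregnancy ER- library was left out, 7 mitochondrial genes were called, all lower. As given above, the adult luminal libraries had the fewest reads and the highest mitochondrial ribosomal RNA, and the part of these in the fall was not tested.

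No nuclear gene was called by limma or edgeR between pregnancy and adult ER+ cells, though 16 of 81 had an unadjusted p under 0.05, and their median of 0.25 was near the 0.21 of all genes. Against puberty, ER+ cells in pregnancy had no limma call and 1 lower edgeR call among nuclear genes, with 11 at an unadjusted p under 0.05, a median of 0.27 against 0.13 for all genes, and 13.1% of all genes called (7.34% higher and 5.73% lower). Cox5a, at 452 and 704, 799 and 578, and 1376 and 1018 in ER+ cells, had 1.07 ± 0.37 over puberty, which did not pass (limma adjusted p = 0.0769). Counts of nuclear calls over the libraries left out in turn were 0 to 9 against adult, with 9 without the first adult ER+ library, and 0 to 5 against puberty, with 5 without either adult basal library. No mitochondrial gene was called by limma against puberty, none had an unadjusted p under 0.05, and edgeR called 1 lower.

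In basal cells, pregnancy changed 1 nuclear gene against adult and none against puberty, where 7.26% (2.92% higher and 4.34% lower) and 2.07% (0.668% higher and 1.4% lower) of all genes were called. The gene was Cox7a1, which fell and is described with the tissue-restricted forms. Unadjusted p-values under 0.05 numbered 13 and 6, edgeR called 1 lower and 0, and the medians of 0.15 and 0.18 compare with -0.09 and -0.02 for all genes. Without the first adult basal library, 18 nuclear genes were called against adult, 17 of them higher. Atp5b, for example, was at 9007 and 9840 at puberty, 10649 and 6094 in adult and 13235 and 12630 in pregnancy basal cells, and its 0.68 ± 0.27 over adult did not pass (limma adjusted p = 0.143). No mitochondrial gene was called by limma in either comparison, with 0 and 1 at an unadjusted p under 0.05, and edgeR called 1 higher against adult and none against puberty. Levels of mt-Co1 were even across basal stages, at 125179 and 138194, 129517 and 118252, and 130057 and 139492.

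**Figure D3:**
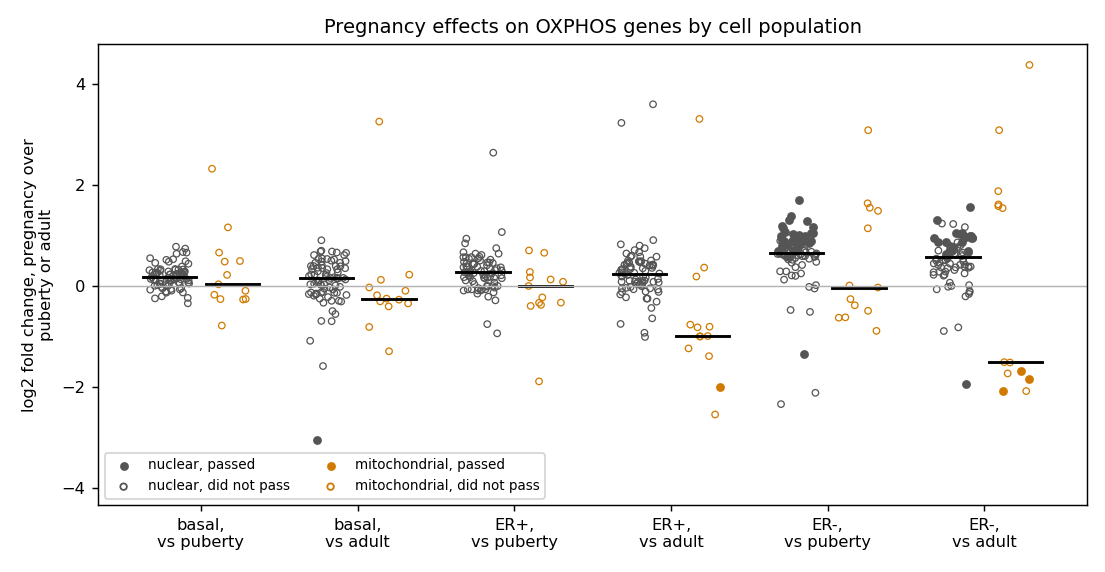
Log2 fold change of each OXPHOS gene, pregnancy over puberty or adult, in basal, ER+ and ER- luminal cells, with nuclear genes in grey, mitochondrial genes in orange, filled points for genes that passed and bars at the medians. In ER- cells nuclear genes have medians of 0.65 over puberty and 0.57 over adult, while mitochondrial genes, over both classes, have -0.03 and -1.51. The 2 pregnancy ER- libraries differ in mitochondrial share, at 2.34% and 0.450%, so these mitochondrial medians rest on unlike libraries.

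Whether stage effects differed between cell types was tested directly. The pregnancy rise over puberty was not shown to differ between ER- and ER+ cells: no nuclear gene was called for the difference by limma or edgeR, where 2.31% of all genes were (0.847% higher and 1.47% lower), although 73 of 81 differences were above 0 with a median of 0.44 (-0.05 over all genes) and 7 had an unadjusted p under 0.05. For Cox5a the difference was 0.64 ± 0.53 (limma adjusted p = 0.675). Pregnancy ER+ libraries also held ER- luminal markers and had lower ER+ marker sums than earlier ER+ libraries, as given above. The part of these in the differences was not tested. Between basal and the mean of luminal cells, no nuclear gene was called for the puberty contrast either, by limma or edgeR, with 5 at an unadjusted p under 0.05, a median of -0.30 (-0.14 over all genes) and 0.744% of all genes called (0.255% higher and 0.488% lower). No mitochondrial gene was called in either test by limma or edgeR, and none had an unadjusted p under 0.05.

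For pregnancy against adult, the difference of basal from luminal effects was called for 1 nuclear and 1 mitochondrial gene, where 6.18% of all genes were called (1.51% higher and 4.67% lower). Atp5l (chr9:44912557-44920742, minus strand), the g subunit of the membrane part of ATP synthase, was at 222 and 201 at puberty, 488 and 605 in adult and 294 and 381 in pregnancy basal cells. In ER+ cells it was at 399 and 306, 396 and 256, and 509 and 446, and in ER- cells at 525 and 448, 355 and 307, and 451 and 534. Adult was thus the highest stage in basal cells and the lowest on average in both luminal populations, and the difference of effects was -1.27 ± 0.31 (limma adjusted p = 0.0250). For mt-Nd6, whose basal levels of 9995 and 13441, 13480 and 15305, and 10565 and 11156 show no adult peak like the luminal ones, the difference was 1.63 ± 0.43 (limma adjusted p = 0.0471), a call lost in 21 of 26 alternatives, at adjusted p of up to 0.149.

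Between the luminal populations, averaged over the 3 stages, 19 of 81 nuclear genes were higher and 2 lower in ER+ than in ER- cells, where 25.5% of all genes were called (10.3% higher and 15.2% lower). By complex, 6 of 35 were higher in complex I, none of 4 in complex II, 2 of 8 in complex III, 7 of 17 in complex IV, which also held both lower genes, and 4 of 17 in complex V. The median was 0.24, against -0.11 for all genes, and 72 of 81 genes were above 0, as were 42.7% of all genes. With other scalings and edgeR the median was 0.26 to 0.32. Splits of all genes were 2305 higher and 3386 lower, but 3101 and 2729 with quantile normalization and 2929 and 2700 with edgeR, which called 31 nuclear genes higher and 1 lower.

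Ndufa7 (chr17:33824572-33838317, plus strand), an accessory subunit of complex I, was at 961 and 1498 at puberty, 1940 and 1196 in adult and 1310 and 969 in pregnancy ER+ cells. ER- cells had 650 and 532, 989 and 915, and 771 and 1022. The ER+ libraries were above the ER- libraries of their stage except in pregnancy, where they overlapped, and the difference was 0.68 ± 0.15 (limma adjusted p = 0.00303). Uqcr11 was at 660 and 800, 877 and 561, and 842 and 850 in ER+ cells and differed by 0.58 ± 0.14 (limma adjusted p = 0.00583). In complex IV, Cox8a, the widespread form of a small membrane subunit, was at 1264 and 1563, 2172 and 1774, and 1740 and 1757 in ER+ and at 939 and 820, 1398 and 959, and 1514 and 1784 in ER- cells, a difference of 0.51 ± 0.13 (limma adjusted p = 0.00990). Ndufa4, named for complex I but known as a subunit of complex IV, differed by 0.50 ± 0.12 (limma adjusted p = 0.00779).

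Further genes were higher in ER+ cells. Cox5a had 0.70 ± 0.22 (limma adjusted p = 0.0263), Ndufs5, an accessory complex I subunit, 0.59 ± 0.19 (limma adjusted p = 0.0296), and Atp5s, a coupling factor, 0.59 ± 0.20 (limma adjusted p = 0.0396). The count of called nuclear genes was 7 to 27 over the libraries left out in turn: 7 without the second puberty ER+ library, 9 without the second adult ER- library, 10 without the first adult ER+ library, 11 without the first pregnancy library of either luminal population or the second puberty ER- library, and 13 without the first puberty ER- library. Without the 6 adult libraries it was 12. Cox7a1, Cox8a, Ndufa4, Ndufa7 and Uqcr11 kept their calls in all 28 alternatives run. No mitochondrial gene was called by limma or edgeR, though 2 of 13 had an unadjusted p under 0.05 and the median was 0.48. Without the 6 pregnancy libraries 6 mitochondrial genes were called higher in ER+ cells, and without the first pregnancy ER- library 7.

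Basal against luminal cells, averaged over stages and with the luminal populations weighted equally, gave 1 higher and 16 lower nuclear genes, where 42.5% of all genes were called (20.9% higher and 21.5% lower). The 16 were 6 of 35 in complex I, 1 of 4 in complex II, 1 of 8 in complex III, 5 of 17 in complex IV and 3 of 17 in complex V. Complexes follow the gene names apart from Ndufa4 and Ndufa4l2, so the 3 in complex V include Atp5sl, described below. The median was -0.20, against -0.03 for all genes, and 69 of 81 were below 0. The share of all genes below 0 is not given here. The 16 lower calls among 81 were no larger a share than the 21.5% of all genes called lower. Here the scaling mattered: with median-ratio scaling 4 genes were higher and 6 lower and the medians were -0.09 for the nuclear and 0.07 for all genes, and with quantile normalization 2 were higher and 24 lower, with medians of -0.21 and -0.17. edgeR called 5 higher and 8 lower. All genes split into 4669 higher and 4804 lower calls, 5399 and 3763 with median-ratio scaling and 4162 and 6486 with quantile normalization.

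Ndufa7, already lower in ER- than ER+ cells, was lowest in basal cells, at 491 and 581 at puberty, 802 and 708 in adult and 521 and 504 in pregnancy. It was lower than in luminal cells by 0.76 ± 0.13 (limma adjusted p = 0.000198). Atp5sl, which carries an ATP synthase name and is known as an assembly factor of complex I, was at 289 and 239, 322 and 183, and 330 and 242 in basal cells, against 334 to 528 in ER+ and 286 to 582 in ER- cells, and fell by 0.70 ± 0.14 (limma adjusted p = 0.000923). Ndufb2, an accessory subunit of complex I, fell by 0.58 ± 0.16 (limma adjusted p = 0.00976), with 136 and 151, 222 and 291, and 155 and 159 in basal cells. These 3 calls held in all 28 alternatives run. Sdha was lower by 0.32 ± 0.10 (limma adjusted p = 0.0146), Ndufv3 by 0.50 ± 0.15 (limma adjusted p = 0.0142) and Cox6b1, at the interface of the complex IV dimer, by 0.48 ± 0.15 (limma adjusted p = 0.0191).

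The count of basal calls moved with single libraries. It was 7 without the second adult basal library, 9 without the first puberty basal library, 11 without the second pregnancy basal library, 26 without the second adult ER- library and 31 without the first adult basal library, and it was 4 without the 6 pregnancy and 27 without the 6 adult libraries. The 2 adult basal libraries differed in nuclear share, at 0.524% and 0.349%, and not in mitochondrial share, at 2.18% and 2.20%. No mitochondrial gene was called by limma or edgeR between basal and luminal cells, 1 of 13 had an unadjusted p under 0.05 and the median was 0.02, but 4 were called lower without the 6 pregnancy libraries or without the second pregnancy ER- library, and 4 without the first, 3 of them higher. Pericyte and vascular smooth muscle markers summed to 9889 to 16406 in basal and 5273 to 11501 in luminal libraries, and fibroblast markers to 16710 to 160508 and 6956 to 81765. Their part in the basal values was not tested.

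**Figure D4:**
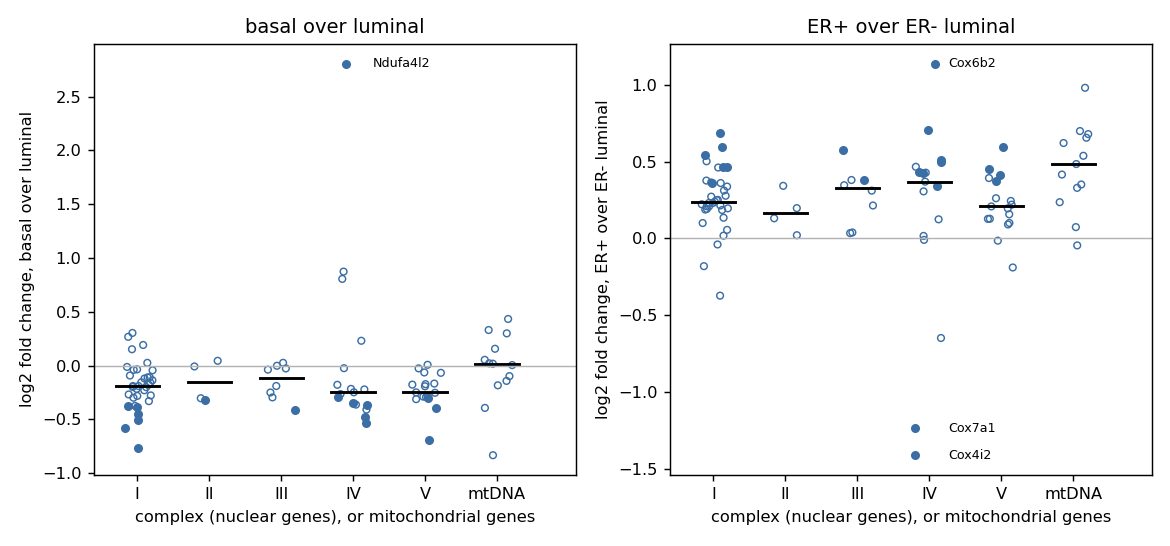
Log2 fold changes of OXPHOS genes by complex, with mitochondrially encoded genes apart, for basal over luminal cells (left) and ER+ over ER- luminal cells (right), with filled points for genes that passed and bars at the medians. Most nuclear genes lie below 0 on the left, with a median of -0.20 (-0.03 for all genes), and above 0 on the right, with a median of 0.24 (-0.11 for all genes).

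Several subunits exist in a widespread and a tissue-restricted form. Cox7a1 (chr7:30184144-30186078, plus strand) is the complex IV form of heart, skeletal muscle and brown fat, while Cox7a2 is its widespread partner. In basal cells Cox7a1 was at 25 and 38 at puberty, 234 and 361 in adult and 43 and 27 in pregnancy. In ER+ cells it was at 82 and 55, 63 and 91, and 47 and 33, and in ER- cells at 166 and 165, 219 and 289, and 61 and 68. Adult basal libraries thus lay far above the other basal ones, and in ER- cells pregnancy was below both earlier stages. Adult basal libraries also had basal marker sums of 147734 and 156440, against 270212 to 315895 in the other 4 basal libraries, and pan-luminal marker sums of 53413 and 66339, against 17568 to 44156. The part of these in Cox7a1 was not tested.

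The fall of Cox7a1 in pregnancy was 3.05 ± 0.41 against adult in basal cells (limma adjusted p = 0.000901), and this call held in all 26 alternatives run. In ER- cells the fall was 1.95 ± 0.41 against adult (limma adjusted p = 0.00726) and 1.35 ± 0.41 against puberty (limma adjusted p = 0.0394). The call against puberty was lost in 5 alternatives, at adjusted p of up to 0.184. In ER+ cells changes of -0.93 against adult and -0.75 against puberty did not pass (limma adjusted p = 0.139 and 0.278). Over stages Cox7a1 was lower in ER+ than in ER- cells by 1.23 ± 0.24 (limma adjusted p = 0.00125). Cox7a2 had the opposite signs in ER- cells, with a rise of 0.71 over puberty (limma adjusted p = 0.0390), and between ER+ and ER- cells, with a rise of 0.43 (limma adjusted p = 0.0188). Its call over puberty was lost in 12 of 26 alternatives.

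Markers of tissues that use Cox7a1 were given beside it as values. Skeletal muscle markers summed to 68 to 261 in all libraries, with 98 and 131 in adult basal cells, and brown adipocyte markers to 35 to 545, with 273 and 474 in puberty, 283 and 286 in adult and 441 and 545 in pregnancy basal cells. Of the brown adipocyte markers, Ucp1 was highest in adult basal cells, at 13 and 46 in puberty, 71 and 75 in adult and 10 and 20 in pregnancy. Dio2 was at 100 and 157, 126 and 136, and 317 and 381, and Cidea, Ppara and Elovl3 were not highest in adult. Adipocyte markers summed to 25768 and 49233 in puberty, 5007 and 5681 in adult and 8869 and 8977 in pregnancy basal cells. The order of adult and pregnancy differed by marker. Lpl was at 1847 and 971 in adult and 5335 and 5964 in pregnancy, whereas Adipoq was at 11 and 10 and at 0 in both. The part of these markers in the Cox7a1 levels was not tested.

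Cox4i2 (chr2:152754173-152765037, plus strand), the form of the regulatory subunit 4 known from lung and from low oxygen, was low throughout, at 21 and 53, 63 and 132, and 30 and 60 in basal, 31 and 6, 32 and 9, and 25 and 13 in ER+, and 115 and 104, 41 and 38, and 27 and 16 in ER- cells. It was lower in ER+ than in ER- cells by 1.41 ± 0.45 (limma adjusted p = 0.0320), a call lost in 11 of 28 alternatives. In ER- cells pregnancy was below puberty without overlap, but the change of -2.34 did not pass (limma adjusted p = 0.0574). Its partner Cox4i1 had higher levels in ER+ cells (0.43, limma adjusted p = 0.0163) and rose in pregnancy ER- cells by 0.69 over puberty (limma adjusted p = 0.0380).

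Ndufa4l2 (chr10:127514967-127517154, plus strand), a relative of Ndufa4 that is induced in low oxygen and is known from pericytes, was the 1 nuclear gene called higher in basal cells. It was at 41 and 113, 76 and 80, and 99 and 60 in basal, 33 and 0, 8 and 0, and 32 and 39 in ER+, and 37 and 6, 7 and 7, and 38 and 8 in ER- cells. All 6 basal libraries were above all 12 luminal ones, as in 4.43% of all genes, but narrowly, with a lowest basal value of 41 and a highest luminal value of 39. In the adult luminal libraries the value of 1 read is 6.26 to 8.25, so the levels there rest on very few reads. The log2 fold change was 2.81 ± 0.71 (limma adjusted p = 0.00534), or 2.20 without the 6 adult libraries, where it did not pass (limma adjusted p = 0.103). Of 8 pericyte and vascular smooth muscle markers, 7 were higher and 1 lower in basal cells. Rgs5 was at 4068 to 5783 in basal and 69 to 2638 in luminal libraries, Notch3 at 1692 to 2804 in basal and 4329 to 6642 in luminal libraries, and Higd1b stayed at 63 or less. Their part in it was not tested.

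Cox6b2 (chr7:4751792-4753094, minus strand), the testis form of Cox6b1, was higher in ER+ than ER- cells by 1.14 ± 0.37 (limma adjusted p = 0.0317), with 39 and 55, 171 and 66, and 100 and 46 in ER+ and 19 and 25, 82 and 19, and 38 and 31 in ER- cells. The populations did not overlap at puberty and in pregnancy and overlapped in adult, where the value of 1 read is 6.26 to 8.25. Cox8b, the muscle and brown fat form of subunit 8, was at 0 to 29 and had no call.

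**Figure D5:**
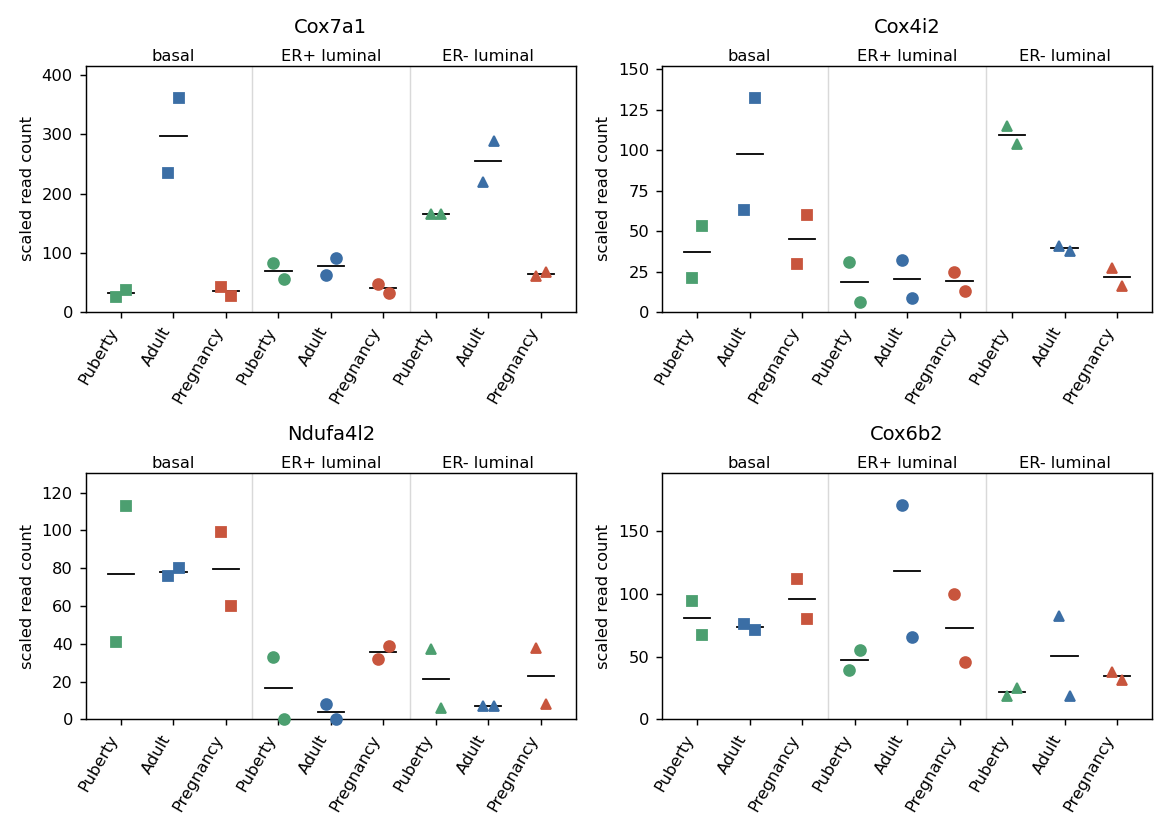
Scaled read counts of 4 tissue-restricted OXPHOS forms by cell type and stage, with 1 point per library and a bar at the mean of 2. Cox7a1 is highest in adult basal cells (234 and 361), and Ndufa4l2 is higher in all 6 basal libraries (41 or more) than in the 12 luminal ones (39 or less).

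Genes around the OXPHOS complexes were read in the same fits, where 8.78% of all genes rose and 6.04% fell between pregnancy and puberty ER- cells. In pregnancy against puberty ER- cells, 14 of 18 TCA cycle enzymes other than Sdh rose and none fell, with a median of 0.88, and citrate synthase (Cs) and malate dehydrogenase (Mdh2) rose by 1.14 and 1.20 (limma adjusted p = 0.00472 and 0.00238). Of 76 mitochondrial ribosomal proteins, which make the 13 mitochondrially encoded proteins, 25 rose and none fell, with a median of 0.66. Cyc1, the cytochrome c1 of complex III that the symbols used here leave out, rose by 1.57 ± 0.23 (limma adjusted p = 0.000495), the only call among 7 such subunits. Assembly factors gave 6 rises among 43, and genes for mitochondrial DNA expression and replication 7 among 27, of which Polrmt, the mitochondrial RNA polymerase, rose by 1.39 ± 0.25 (limma adjusted p = 0.00194). Glycolysis enzymes gave 4 rises and 1 fall among 17, uncoupling and oxygen defence genes 2 rises among 9, and cytosolic ribosomal proteins 1 rise and 4 falls among 100 with a median of -0.28. An alternative chosen after seeing the data left out the second pregnancy ER- library: 1 TCA enzyme, 2 mitochondrial ribosomal proteins, 4 genes for mitochondrial DNA expression, 2 regulators and no assembly factor or glycolysis enzyme were then called, with medians of 0.71 for TCA enzymes and 0.48 for mitochondrial ribosomal proteins. By limma, Cyc1, Mdh2 and Polrmt still passed without it (limma adjusted p = 0.0113, 0.0303 and 0.0308), and Cs did not (limma adjusted p = 0.0576).

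Regulators of nuclear OXPHOS genes were among the risers in the same comparison, 5 of 14 without a fall. Ppargc1b, a coactivator of these genes, was at 210 and 197 at puberty, 232 and 101 in adult and 549 and 808 in pregnancy ER- cells, and rose by 1.71 ± 0.39 over puberty (limma adjusted p = 0.00871). Its partner receptor gene Esrra was at 253 and 176, 178 and 157, and 404 and 684, and rose by 1.31 ± 0.35 (limma adjusted p = 0.0195). Both had pregnancy libraries above the 4 others, but neither passed without the second pregnancy ER- library, at 1.43 and 0.93 (limma adjusted p = 0.107 and 0.206). In pregnancy against puberty ER+ cells, TCA enzymes and mitochondrial ribosomal proteins gave 1 rise each, without a fall, where 7.34% of all genes rose.

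Against adult, pregnancy ER- cells had 11 of 18 TCA enzymes, 12 of 76 mitochondrial ribosomal proteins, 6 of 14 regulators and 7 of 17 glycolysis enzymes higher and none lower in these 4 lists, where 8.89% of all genes were higher. Without the second pregnancy ER- library these counts were 1, 0, 1 and 2. Of the 6 tested mitochondrial ribosomal and transfer RNA genes, 2 were lower in ER+ and 4 in ER- cells in pregnancy than in adult, with 2 in ER- cells without that library. Between basal and luminal cells, 30 of 76 mitochondrial ribosomal proteins, 6 of 18 TCA enzymes, 10 of 43 assembly factors and 8 of 14 regulators were lower, with 0, 0, 1 and 2 higher, where 21.5% of all genes were lower and 20.9% higher. The regulator Esrrg was lower in basal cells by 1.74 ± 0.19 (limma adjusted p = 2.61e-06) and higher in ER+ than ER- cells by 1.22 ± 0.22 (limma adjusted p = 0.000609). ER+ against ER- cells had 5 TCA enzymes higher and 1 lower and 4 mitochondrial ribosomal proteins higher and 2 lower, where 10.3% of all genes were higher and 15.2% lower.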

How the data were processed

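RNA of sorted mouse mammary cells was extracted with a micro column kit and, per the labels, made into libraries with an Ovation Solo kit. What the authors deposited is a signal: 1 whole number for each gene in each library, with totals of 19819213 to 19881049. Per the submitters' processing notes, STAR, Picard and HTSeq are named as tools and GRCm38 as the build. The sources used here do not give their versions, settings, use of strand or treatment of reads that match several places. Values rise in steps of 1.75 to 8.25 per read, so they were taken as counts scaled to 20000000 and rounded up. Undoing this returned 98.8% to 99.9% of values per library. Whole steps without allowance for rounding were met by 3 libraries, and depths of the other 15 rest on the inferred rounding. Many nuclear OXPHOS genes have processed pseudogenes in the mouse genome, and reads of these, of overlapping and of antisense genes may be split, so their values are uncertain.

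Of 46868 rows, 611 that repeat a gene ID were dropped, as were 4 pseudogene rows among the members. limma 3.58.1 (R 4.3.3) with trended, robust variance was fitted to log2(value + 1) of 22315 genes in 1 model of 9 groups. Cell type comparisons average the 3 stages. Alternatives were a pseudocount of 5, no filter, other scalings, the compared groups alone, a replicate block, whole stages or single libraries left out, and edgeR 4.0.16 on recovered reads. With 1 library of a group left out, the remaining one is assumed to vary like the other groups. Shares of all genes called in such fits are not given, so counts of calls in them are not read as a trait of the OXPHOS genes. Replicate numbers were not used to pair libraries in the main fit. Deviations of same-numbered libraries of a stage correlated at 0.0159 to 0.269 (Pearson r). Of 9 pairs of groups 1 was over 0.1, that of puberty ER+ with puberty ER- cells. There the replicates differed alike in some markers, with Cdh5 at 1937 and 138 in ER+ and 2052 and 320 in ER- cells. Whether these libraries shared a preparation was not tested.

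Members and companion lists were chosen with earlier results of these data known. Named are all mitochondrial genes, complex II, the tissue-restricted forms and their partners, up to 6 called rises and falls per comparison, the highest and lowest gene of each complex, and up to 4 genes per companion list. Genes named beyond this, Cox8a and Ndufa4 among the stable calls, Ndufa11 and the chromosome 1 copies, were chosen after their values were seen. The symbol pattern for cytosolic ribosomal proteins also takes in S6 kinase genes. Positions are from GENCODE vM21, with 45934 IDs found. Alignments used Biopython 1.88, tables numpy 2.4.6 and pandas 2.3.3 under Python 3.11.15, and plots matplotlib 3.10.9. The model was tested on simulated data. The values of 1 member are not reported here.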

Additional observations from a re-analysis of the deposited data

Results flagged for a closer look

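The effect of pregnancy against adult on Atp5l differed between basal and luminal cells by -1.27 ± 0.31 on the log2 scale (limma adjusted p = 0.0250), the basal effect minus the mean luminal one. Its changes were -0.70 in basal, 0.58 in ER+ and 0.57 in ER- cells, none of which passed on its own. The call was lost in 4 of 26 alternatives. For mt-Nd6 the same difference was 1.63 ± 0.43 (limma adjusted p = 0.0471), from -0.40 in basal, -1.99 in ER+ and -2.08 in ER- cells, and it was lost in 21 of 26 alternatives.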

How the results depend on the processing

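Counts of called nuclear genes changed with the setting as follows. ER+ against ER- cells had 32 with edgeR and 12 without the 6 adult libraries. Basal against luminal cells had 10 with median-ratio scaling, 26 with quantile normalization, 31 with the replicate block, 27 without adult and 4 without pregnancy libraries. Pregnancy against adult in ER+ cells had 1 with median-ratio scaling, 1 with library totals that leave out mitochondrial rows and 3 with quantile normalization, and in basal cells 2 with quantile normalization. Pregnancy against puberty had, in ER+ cells, 1 with edgeR, median-ratio scaling, only the groups compared, the pseudocount of 5 or the replicate block and 3 with quantile normalization, in ER- cells 20 with median-ratio scaling, and in basal cells 7 with only the groups compared.

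Counts of called mitochondrial genes were 6 (ER+ against ER-) and 4 (basal against luminal) without pregnancy libraries. Pregnancy against adult gave 2 in ER+ cells with only the groups compared, quantile normalization or the replicate block, 1 in ER- cells with edgeR, no filter, only the groups compared or quantile normalization, and 1 in basal cells with edgeR. Pregnancy against puberty gave 1 in ER+ cells with edgeR or only the groups compared, and 1 in ER- cells with only the groups compared or quantile normalization. The difference of basal and luminal effects against adult gave 0 with edgeR, median-ratio scaling, no filter, only the groups compared or quantile normalization. The replicate numbers do not pair the libraries, and the block moved no other count of calls by over 1.5 times.

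With single libraries left out, nuclear counts ranged from 7 to 27 (ER+ against ER-), 7 to 31 (basal against luminal), 0 to 9, 0 to 27 and 1 to 18 (pregnancy against adult in ER+, ER- and basal cells), 0 to 5, 1 to 36 and 0 to 1 (against puberty in the same order) and 0 to 4 (basal minus luminal effect against adult). Mitochondrial counts ranged from 0 to 7 (ER+ against ER-), 0 to 4 (basal against luminal), 1 to 7 and 1 to 7 (pregnancy against adult in ER+ and ER- cells), 0 to 7 (against puberty in ER- cells), 0 to 7 (basal minus luminal effect against adult), and 0 to 5 and 0 to 1 (ER- minus ER+ and basal minus luminal effects against puberty). The median log2 change ranged from -0.79 to 0.73 for mitochondrial genes (pregnancy against puberty, ER- cells), highest without the second pregnancy ER- library. For nuclear genes (pregnancy against adult) it ranged from -0.025 to 0.48 in ER+ cells, lowest without the second adult ER+ library, and from -0.11 to 0.36 in basal cells, lowest without the second adult basal library.

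Log2 ratios of mitochondrial to nuclear level were also taken relative to their mean over the 18 libraries. With medians over members in place of sums these centred values were 1.50 and 1.41 in adult ER+ and ER- cells, -0.74 and -0.37 in pregnancy ER+ and basal cells and -0.46 and -0.12 in puberty ER- and basal cells. Puberty basal cells turned sign, with 0.18 from sums. The 6 low mitochondrial genes enter these medians. Of 97 calls of single genes, 699 were kept and 153 lost over the other settings, counted per setting, and 1314 kept and 432 lost over libraries left out. Causes were not tested. Depth limits genes near the value of 1 read, such as Cox8b, Cox6b2 and, in luminal cells, Ndufa4l2.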
